A study of Mus musculus with 4 samples.

Results

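Dense stretches of open chromatin were taken as runs of ATAC-seq regions that lay close together and were called in every library. Overlapping peak intervals of the 4 libraries on chromosomes 1 to 19 were merged, and regions called in all 4 were kept as shared. Shared regions at most 5 kb apart were joined, and joined stretches with 5 or more shared regions were retained, so that members were chosen by the authors' peak calls and by spacing. This gave 147 stretches holding 839 shared regions, which were 1.49% of the 56427 shared regions on these chromosomes. The merged lists held 166883 regions on chromosomes 1 to 19 and 170898 in all.

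ATAC-seq marks open chromatin by where a transposase can cut DNA. The line studied was 2TS22C, a mouse embryonic stem cell line whose own Sox2 had been silenced and was replaced from a lentivirus, and it was grown in 2i serum/LIF medium, which favours the naive pluripotent state. In the SOX17FNV group (2 libraries) the lentivirus carried SOX17FNV, and in the SOX2 group (2 libraries) it carried SOX2. Both groups received DOX, and each library started from 900000 cells. The titles call the libraries of a group biological replicates without saying whether they came from separate transductions, cultures or clones, and cells with their own Sox2 active were not analysed here, so the comparison is between 2 rescued lines and p-values measure only the spread between these libraries. SOX17FNV is an engineered form of SOX17, an endoderm factor of the same family as SOX2, and SOX2 is a core pluripotency factor.

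Closely spaced open regions arise in several known settings. Some are super-enhancers, groups of enhancers bound densely by pluripotency factors and Mediator near genes that set the identity of a stem cell. Others are runs of promoters in gene-dense sequence, such as the replication-dependent histone genes, clusters of tRNA genes transcribed by RNA polymerase III, and gene families such as the clustered protocadherins and the Hox genes. No histone mark, Mediator or transcription data were used here, so no stretch could be checked against the definition of a super-enhancer.

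The peak lists held 120341 and 92851 peaks in SOX17FNV replicates 1 and 2 and 123214 and 96500 peaks in SOX2 replicates 1 and 2, which places the longer list of each group at replicate 1. Of 13 embryonic stem cell marker genes, 12 had a shared region within 1 kb of a gene end, and so did 6 of 8 fibroblast (feeder cell) marker genes, beside 65.9% of all 20665 protein-coding genes. Esrrb was the stem cell marker without one, and Col3a1 and Postn were the fibroblast markers without one.

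A stem cell landmark among the stretches was the miR-290 cluster, a group of microRNA genes transcribed together that is highly active in mouse embryonic stem cells and whose 3p products promote their rapid cell cycle. The stretch at chr7:3191867-3222593 (mm10) held 12 shared regions, the second highest number after the 16 of the protocadherin gamma cluster, and also overlapped Nlrp12, an innate immune receptor gene. The miRNA genes it overlapped, 9 in number, had 17 mature miRNAs in RefSeq (GRCm38.p6), with 11 distinct seeds. The 5 products sharing AAGUGC within the seed and the 3 sharing the seed CUCAAAC are shown because they recur across the hairpins of the cluster, with bases 2 to 8 in capitals.
mmu-miR-290a-3p: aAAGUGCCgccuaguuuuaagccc
mmu-miR-291a-3p: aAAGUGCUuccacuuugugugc
mmu-miR-291b-3p: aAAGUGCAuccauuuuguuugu
mmu-miR-294-3p: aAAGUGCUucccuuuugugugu
mmu-miR-295-3p: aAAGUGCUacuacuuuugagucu
mmu-miR-290a-5p: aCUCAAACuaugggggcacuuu
mmu-miR-292a-5p: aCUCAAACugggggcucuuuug
mmu-miR-293-5p: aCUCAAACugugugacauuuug

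Promoter sequences are shown for 4 genes under stretches whose promoters hold an OCT octamer: the promoter of Zfp42 (also called Rex1), a zinc finger gene and naive pluripotency marker, at chr8:43306960-43307259 (minus strand), and the promoters of 3 histone genes on chromosome 13, H2bc3 at chr13:23746484-23746783 (plus strand), H2ac4 at chr13:23750838-23751137 (plus strand) and H2bc8 at chr13:23571150-23571449 (plus strand). Each window runs over 250 bases before and 50 bases after the RefSeq gene start (GRCm38.p6), and capitals mark the SOX letters ACAAT or ATTGT and the octamer ATGCAAAT or ATTTGCAT, searched on both strands.
Zfp42 promoter: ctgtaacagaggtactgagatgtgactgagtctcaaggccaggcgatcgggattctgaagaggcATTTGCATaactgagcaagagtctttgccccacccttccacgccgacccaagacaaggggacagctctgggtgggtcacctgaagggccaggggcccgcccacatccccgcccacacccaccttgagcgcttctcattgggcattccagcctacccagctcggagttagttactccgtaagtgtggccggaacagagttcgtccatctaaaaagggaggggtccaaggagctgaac
H2bc3 promoter: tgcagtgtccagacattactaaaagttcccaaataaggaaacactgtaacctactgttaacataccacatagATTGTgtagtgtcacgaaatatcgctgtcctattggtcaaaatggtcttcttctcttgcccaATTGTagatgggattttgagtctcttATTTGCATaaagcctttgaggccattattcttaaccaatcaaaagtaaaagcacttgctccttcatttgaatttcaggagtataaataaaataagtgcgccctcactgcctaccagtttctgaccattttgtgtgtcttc
H2ac4 promoter: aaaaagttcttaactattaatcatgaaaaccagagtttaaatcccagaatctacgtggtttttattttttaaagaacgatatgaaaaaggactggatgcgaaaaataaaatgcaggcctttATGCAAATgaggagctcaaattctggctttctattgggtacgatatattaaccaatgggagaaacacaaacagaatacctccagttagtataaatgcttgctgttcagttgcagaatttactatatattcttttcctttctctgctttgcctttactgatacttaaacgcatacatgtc
H2bc8 promoter: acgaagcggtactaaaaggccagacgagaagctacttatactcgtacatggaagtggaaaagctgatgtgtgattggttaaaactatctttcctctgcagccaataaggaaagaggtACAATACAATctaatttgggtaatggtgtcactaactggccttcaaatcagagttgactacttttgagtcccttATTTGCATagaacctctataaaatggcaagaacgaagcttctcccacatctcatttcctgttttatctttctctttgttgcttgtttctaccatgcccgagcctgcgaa

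The octamer, the sequence that OCT factors bind and a known element of histone H2B promoters, was found in 6 of the 118 promoter windows that overlapped a member region (5.08%). It was found in 336 of all 20063 promoter windows in the table (1.67%) and in 1.40% of windows that overlapped a shared region outside the stretches. The 6 were the promoters of H2ac4, H2ac8, H2bc3, H2bc6, H2bc8 and Zfp42, and the H2ac8 and H2bc8 windows overlap on opposite strands and hold the same octamer. SOX letters were in 28 of the 118 windows (23.7%), against 26.8% of all windows and 18.1% of windows at other shared regions. The median GC content was 59.5% in windows at members, against 57% in all windows and 62% in windows at other shared regions. These counts describe letters in 300-base windows and were not tested, and promoters on chromosome 18 were not used here.

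Most stretches were small. Exactly 5 regions were held by 95 stretches, 6 by 31, 7 by 9 and 8 by 7, while 2 held 10 and 1 each held 11, 12 and 16. Just outside the threshold, 346 joined stretches held 4 regions, and their median length was 11817 bp, against 15451 bp for the stretches of exactly 5. Stretch lengths lay between 8448 and 57439 bp with a median of 16919 bp, and open regions covered between 15.6% and 44.7% of them (median 28.4%). Neighbouring shared regions genome-wide were a median of 13427.5 bp apart, with 20.1% of gaps at or below the 5 kb that joined them.

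Gene content varied widely. No protein-coding gene was overlapped by 40 stretches, 1 gene by 51, 2 by 32, 3 by 14 and 4 or more by 10, for 219 distinct genes in all. Of the member regions, 27.4% lay within 1 kb of the end of a protein-coding gene (exact binomial interval 24.4 to 30.6%), 27.2% inside a gene and 45.4% between genes (42.0 to 48.9%). Other shared regions lay at gene ends in 25.6%, inside genes in 38.5% and between genes in 35.9% of cases. Members thus lay between genes more often than other shared regions and inside genes less often in these lists, and 54 stretches had no member at a gene end at all. These positions were not tested, and the intervals count regions as independent, which neighbours in a stretch are not.

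Dense stretches also lay near each other. Of the 147, 38 had another within 500 kb. The largest group was 6 stretches with 33 shared regions on chr8:84629674-85017530, over Cacna1a, Ier2 and Junb (immediate early genes), Klf1 (an erythroid factor), Mast1 and Best2. A group of 4 at chr13:23423543-23765084 ran over Abt1, Btn1a1 and the replication-dependent histone genes, and a group of 3 at chr5:142813265-142941050 ran over Tnrc18, Fbxl18 and Actb, the cytoplasmic actin gene.

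Member regions carried tall peaks on a raised local background. The median summit pileup, the number of fragments stacked at a peak's summit, was 46 and 33 for members in SOX17FNV replicates 1 and 2 and 48 and 37 in SOX2 replicates 1 and 2. Other shared regions had medians of 33 and 24 with SOX17FNV and 35 and 28 with SOX2. Members were thus 1.32 to 1.39 times as tall in every library. Their fold enrichment over local background, which the authors' peak caller assigned, was lower: members had medians of 3.27 and 3.29 with SOX17FNV, then 3.02 and 2.92 with SOX2, and other shared regions had medians of 4.48 and 4.17 with SOX17FNV, then 4.31 and 3.49 with SOX2. The local background at members, recovered from pileup and fold, was 3.35 and 2.79 times the genome-wide background with SOX17FNV and 3.49 and 2.34 times with SOX2. At other shared regions it was 1.60 and 1.48 times with SOX17FNV and 1.62 and 1.37 times with SOX2. Pileup therefore ranked members above other shared regions and fold enrichment ranked them below in all 4 libraries. Since the same pileup and background decided which regions were called, these values are a description with no test. Members were also chosen for close neighbours, and the part of neighbouring peaks in their local background was not tested.

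**Figure D1:**
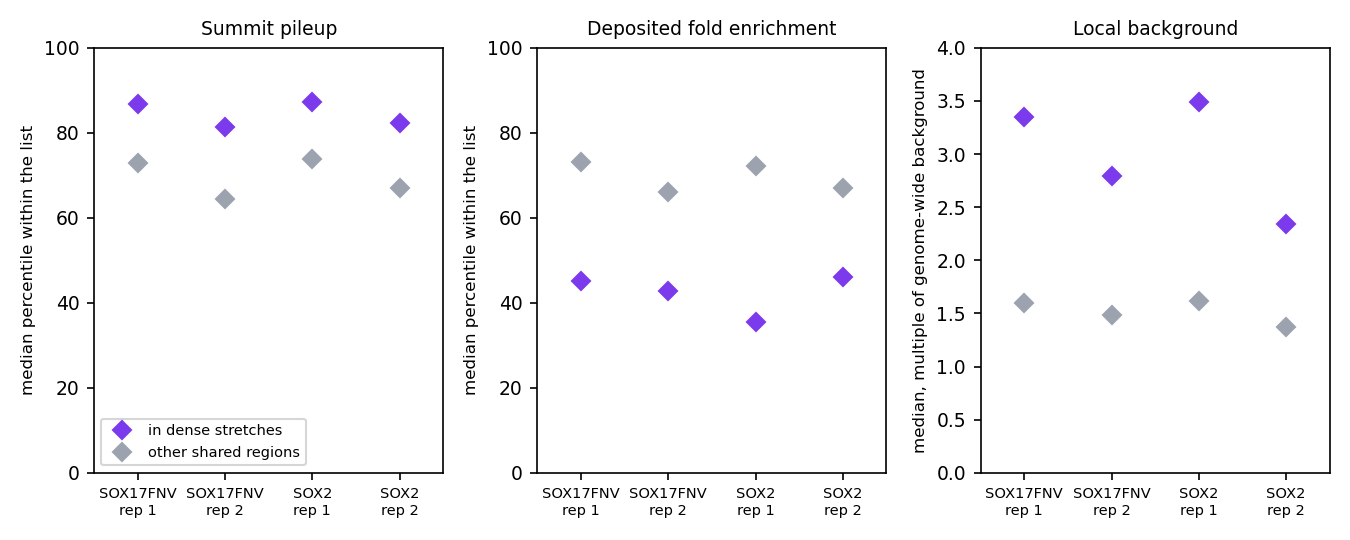
Median percentile of summit pileup (left) and of deposited fold enrichment (middle) within each library's peak list, and median local background as a multiple of the genome-wide background (right), for member regions and other shared regions in each library. Members sit higher on pileup (81.3 to 87.3, against 64.3 to 73.8) and on background, and lower on fold enrichment (35.5 to 46.1, against 66.0 to 73.0).

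To ask whether the stretches were opened to a different degree by SOX17FNV and SOX2, each region's pileup was divided by the median over all shared regions of its library, and the geometric mean over the members of a stretch was taken as its relative pileup. A difference is the mean log2 relative pileup of the SOX17FNV libraries minus that of the SOX2 libraries. With 2 libraries against 2, an exact two-sided permutation test of a value cannot give a p below 0.333, so non-overlap of the groups is reported as a count beside its share over all features.

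Over the 147 stretches the groups were close. The median log2 relative pileup was 0.46 ± 0.0088 with SOX17FNV and 0.40 ± 0.0082 with SOX2 (SD, n = 2 each; exact permutation p = 0.333, the smallest possible), a difference of 0.06. The library medians were 0.47 and 0.46 with SOX17FNV, against 0.40 and 0.41 with SOX2. The difference was 0.26 scaled to background pileup and 0.02 scaled to the same chromosome, and turned negative by deposited fold, scaled to 5 Mb, with lists of equal length, and where any of 3 libraries was left out and the stretches redrawn. Those values compare library medians, which the reported scaling makes equal for all shared regions. Taken region by region instead, the median difference over all shared regions was 0.04 as reported. It was 0.24 scaled to background pileup and -0.0093 by deposited fold. Taken stretch by stretch, the median difference as reported was also 0.04. Among member regions, 212 of 839 (25.3%) were higher in both SOX17FNV libraries than in both SOX2 libraries, beside 24.4% of all shared regions. Lower in both were 153 members (18.2%), beside 18% of all shared regions. Members thus stood close to the background in both directions.

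Whole stretches were higher in both SOX17FNV libraries in 52 cases (35.4%), beside 27.3% of the 8528 joined stretches with 2 to 4 regions, and lower in both in 31 cases (21.1%), beside 18.6%. These shares were not tested against each other, a stretch of more regions averages more values, and under scaling to the background pileup the counts were 26 and 0. Scaled to the same chromosome they were 42 higher and 35 lower. Lower stretches outnumbered higher ones by deposited fold (5 higher, 9 lower), with lists of equal length (21 and 29) and scaled to 5 Mb (32 and 38). The differences of single stretches ran from -0.35 to 0.60 with a median of 0.04. Regions within a stretch differed among themselves by a median SD of 0.21, and in 16 stretches every member had the same sign, higher with SOX17FNV in 10 and lower in 6.

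**Figure D2:**
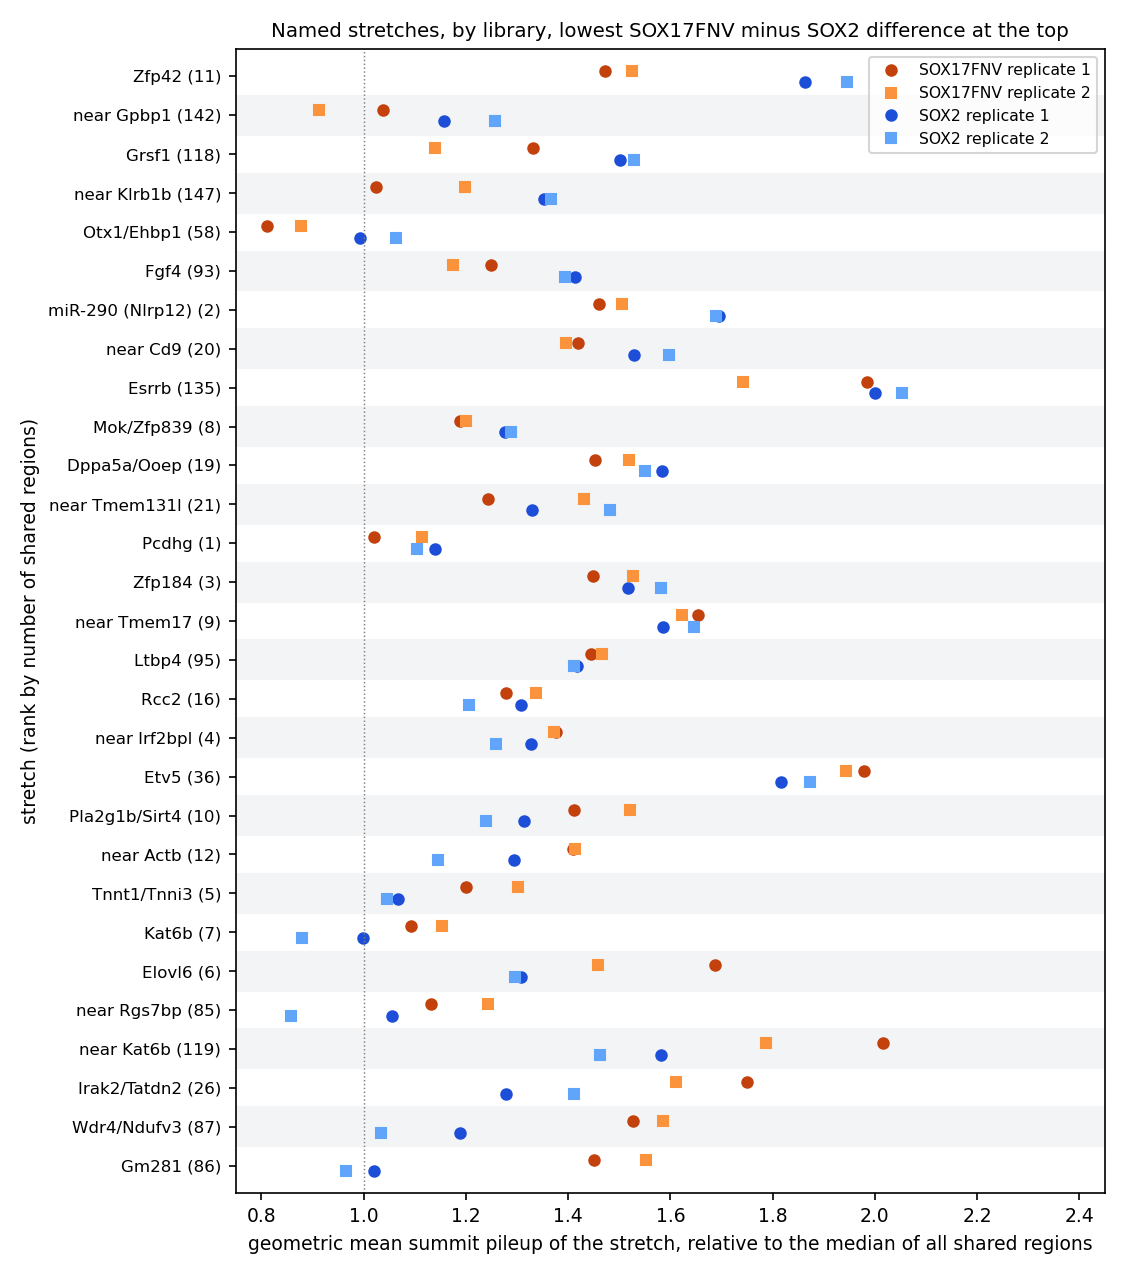
Relative pileup of named stretches (rows) in each library, on a linear axis where 1 is the median of all shared regions, sorted by the SOX17FNV minus SOX2 difference with the lowest at the top. Circles are replicate 1 and squares replicate 2; the SOX17FNV points lie left of the SOX2 points at Zfp42 and right of them at Gm281.

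By relative pileup, the listed stem cell genes under stretches stood mostly on the lower side. Of 53 listed genes for general pluripotency, naive pluripotency, LIF signalling and stem cell super-enhancers, Esrrb, Zfp42, Fgf4, Dppa5a and Etv5 were overlapped by a stretch. Lower relative pileup in both SOX17FNV libraries was seen at Zfp42, Fgf4, Esrrb and Dppa5a and higher at Etv5, although Esrrb and Dppa5a turned positive when scaled to background pileup, Esrrb also by deposited fold, and Etv5 turned negative when scaled to the shared regions within 5 Mb. Background scaling adds the same shift to every region and moved the median of all shared regions to 0.24. By deposited fold the differences were small at Zfp42 (-0.04), Fgf4 (-0.01), Dppa5a (-0.06) and Esrrb (0.02). The largest was upward, at Etv5 (0.11), beside a median of -0.0093 for all shared regions. Of the 31 member regions in these 5 stretches, 11 were lower in both SOX17FNV libraries (35.5%, beside 18% of all shared regions) and 3 were higher (9.68%, beside 24.4%). Most of these 11 lay in the Zfp42 stretch alone. Neighbouring regions of a stretch are not independent, and these shares were not tested.

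The Zfp42 stretch at chr8:43285804-43307516 had the lowest difference of all. Its relative pileup was 1.47 and 1.52 in SOX17FNV replicates 1 and 2, against 1.86 and 1.94 in SOX2 replicates 1 and 2, a log2 difference of -0.35 beside 0.03 for shared regions within 5 Mb. The groups did not overlap. Of its 8 members 6 were lower in both SOX17FNV libraries, and the exception with a positive difference was the promoter region at chr8:43306748-43307516, whose pileup was 70 and 68 in the SOX17FNV libraries, against 78 and 67 in the SOX2 libraries (log2 difference of the relative values 0.09). The promoter printed above, with its octamer, lies within that region. The region with the largest decrease, at chr8:43295771-43296286, had pileups of 45 and 27 in the SOX17FNV libraries, against 60 and 52 in the SOX2 libraries (-0.53). The local background of the stretch, relative to the median of all shared regions, was 2.87 and 2.43 in the SOX17FNV libraries, against 3.96 and 2.80 in the SOX2 libraries, so it was lower on average with SOX17FNV while the groups overlapped. By deposited fold enrichment the difference was -0.04, and the part of the background in the result was not tested.

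Fgf4, a growth factor that primes stem cells to differentiate and a classic SOX2 and OCT4 target, had its difference largely at 1 region. Its stretch at chr7:144857286-144873524 had a relative pileup of 1.25 and 1.17 in the SOX17FNV libraries, against 1.41 and 1.39 in the SOX2 libraries (log2 difference -0.21). The region at chr7:144867109-144867927, which lies between genes, had pileups of 31 and 21 in the SOX17FNV libraries, against 62 and 52 in the SOX2 libraries, a log2 difference of -1.0004. The region at the promoter of Fgf4 had pileups of 51 and 35 in the SOX17FNV libraries, against 46 and 40 in the SOX2 libraries, with relative values higher in both SOX17FNV libraries (0.13). By deposited fold the difference of the stretch was -0.01.

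Esrrb encodes an orphan nuclear receptor of the naive pluripotency network, and its stretch at chr12:86496995-86508758 lay wholly inside the gene. Relative pileup was 1.98 and 1.74 in the SOX17FNV libraries, against 2.00 and 2.05 in the SOX2 libraries (-0.12), with SOX17FNV replicate 1 only just below the SOX2 values. Dppa5a, an RNA-binding protein gene of pluripotent cells, and its neighbour Ooep, an oocyte gene, shared a stretch with relative pileup of 1.45 and 1.52 in the SOX17FNV libraries, against 1.58 and 1.55 in the SOX2 libraries (-0.08). There the region at the end of Ooep, chr9:78377804-78378840, had pileups of 31 and 23 in the SOX17FNV libraries, against 46 and 39 in the SOX2 libraries (-0.51). Etv5, an ETS factor downstream of FGF signalling, had 1.98 and 1.94 in the SOX17FNV libraries, against 1.82 and 1.87 in the SOX2 libraries (0.09). None of these differences could pass a test at this size.

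The miR-290 stretch had relative pileup of 1.46 and 1.51 in the SOX17FNV libraries, against 1.69 and 1.69 in the SOX2 libraries, a log2 difference of -0.19 beside 0.03 for its surroundings. It was 0.01 when scaled to background pileup, which shifts all regions alike, and -0.07 by deposited fold. Of its 12 members, 9 lay before the first of the 8 hairpins with coordinates, 2 overlapped hairpins and 1 lay after the last. The far upstream region at chr7:3192973-3193628 had pileups of 42 and 21 in the SOX17FNV libraries, against 66 and 56 in the SOX2 libraries, a log2 difference of -0.88. The 2 regions that overlap hairpins differed by -0.15 each, and the hairpin of miR-290a lies 131 bp outside the nearest of them. The highest peak of the stretch in SOX17FNV replicate 1, at chr7:3200949-3201908, had pileups of 84 and 62 in the SOX17FNV libraries, against 71 and 71 in the SOX2 libraries, and its relative values were higher in both SOX17FNV libraries (0.18).

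**Figure D3:**
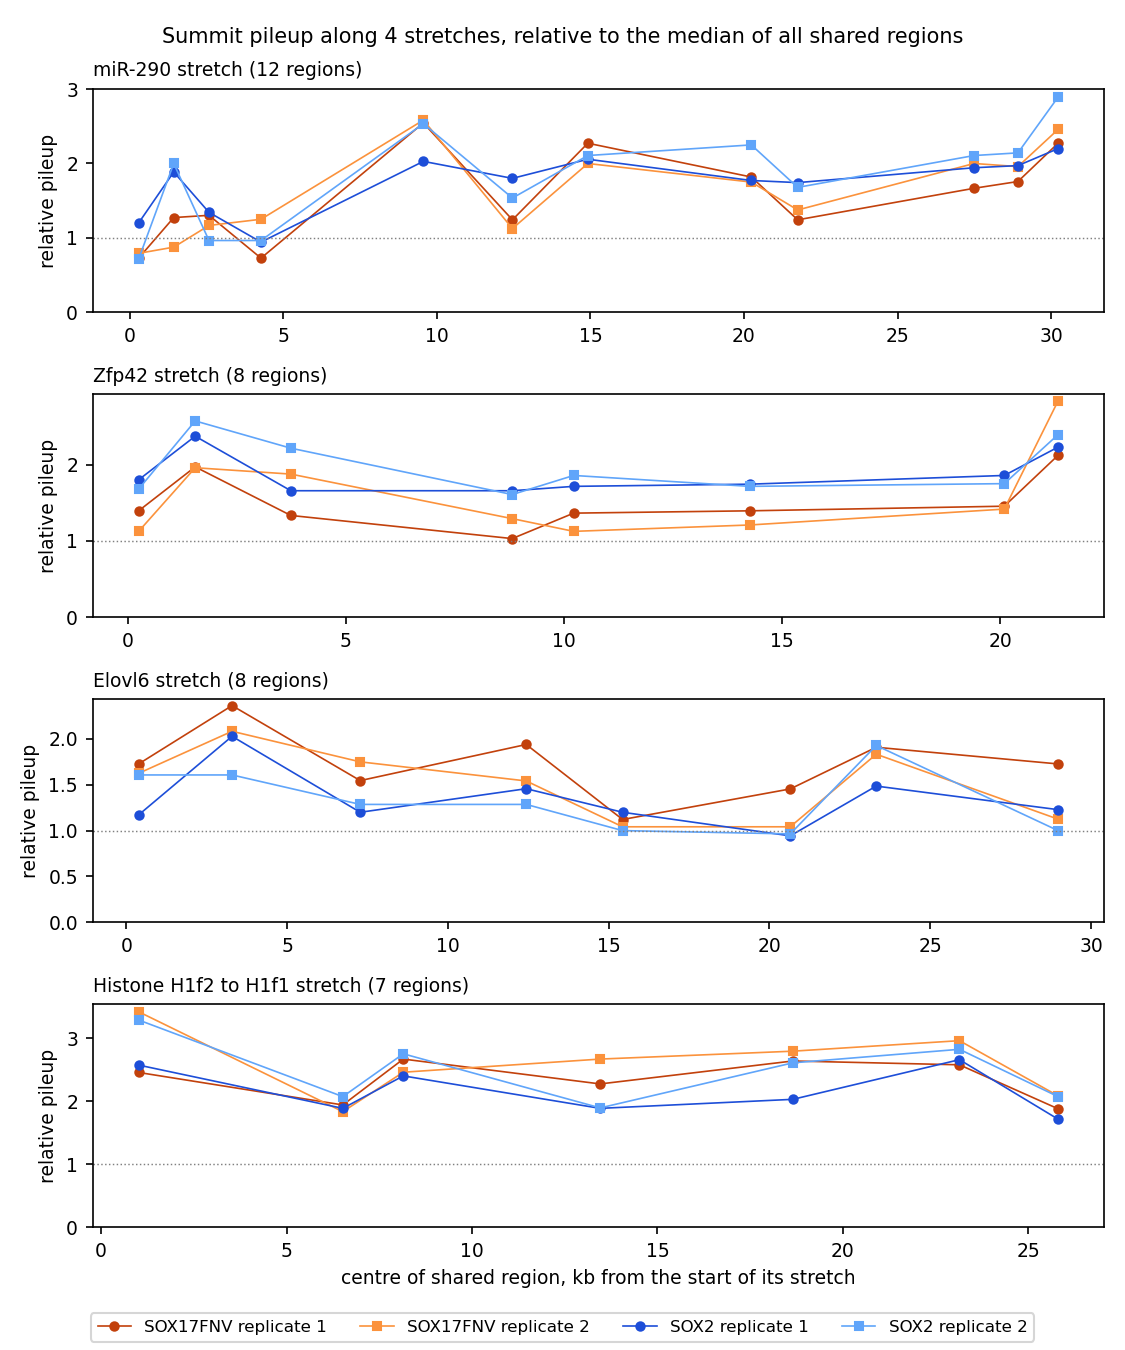
Relative summit pileup (1 is the median of all shared regions) of each member along the miR-290, Zfp42, Elovl6 and histone H1f2 to H1f1 stretches, by distance in kb from the start of the stretch, for each library. In the Zfp42 panel the SOX2 lines lie above the SOX17FNV lines except at the third region and at the promoter region at the right, where they mix; in the histone panel the lines cross.

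Some stretches outside these lists were higher with SOX17FNV. The Wdr4 and Ndufv3 stretch at chr17:31519527-31536291, over genes for a tRNA methyltransferase subunit and a subunit of respiratory complex I, had relative pileup of 1.53 and 1.59 in the SOX17FNV libraries, against 1.19 and 1.03 in the SOX2 libraries, a log2 difference of 0.49 beside 0.08 within 5 Mb. All 5 of its regions were higher in both SOX17FNV libraries. Its difference was 0.17 by deposited fold. Elovl6, a fatty acid elongase gene, had 1.69 and 1.46 in the SOX17FNV libraries, against 1.31 and 1.30 in the SOX2 libraries (0.27 beside -0.03 within 5 Mb). Of its 8 regions 5 were higher in both SOX17FNV libraries, and its difference was 0.19 by deposited fold. Irak2, a kinase gene of interleukin and Toll-like receptor signalling, had 1.75 and 1.61 in the SOX17FNV libraries, against 1.28 and 1.41 in the SOX2 libraries (0.32, and 0.07 by deposited fold). The stretch over the troponin genes Tnnt1 and Tnni3 had 1.20 and 1.30 in the SOX17FNV libraries, against 1.07 and 1.05 in the SOX2 libraries (0.24, and 0.09 by deposited fold). A stretch without a gene near Rgs7bp had 1.13 and 1.24 in the SOX17FNV libraries, against 1.05 and 0.859 in the SOX2 libraries (0.32, and 0.02 by deposited fold).

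Chromosome 14 stood apart as a whole. Shared regions on it had a SOX17FNV over SOX2 ratio of 1.30, and its 5 stretches all had positive differences, of which 4 were higher in both SOX17FNV libraries. Gm281 had 1.45 and 1.55 in the SOX17FNV libraries, against 1.02 and 0.966 in the SOX2 libraries (0.60, the highest of all stretches, beside 0.42 within 5 Mb), and all 5 of its regions were higher. Kat6b, a histone acetyltransferase gene, had 1.09 and 1.15 in the SOX17FNV libraries, against 0.998 and 0.879 in the SOX2 libraries (0.26 beside 0.47 within 5 Mb), and a stretch near it differed by 0.32 beside 0.46. Of the 5 stretches only Gm281 exceeded its surroundings, and by deposited fold it differed by -0.07. The local background at Gm281, relative to the median of all shared regions, was 1.63 and 1.75 in the SOX17FNV libraries, against 1.20 and 0.949 in the SOX2 libraries. A change of chromosome copy number and a change in openness cannot be told apart here. Without chromosome 14, 48 of 142 stretches were higher and 31 lower.

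**Figure D4:**
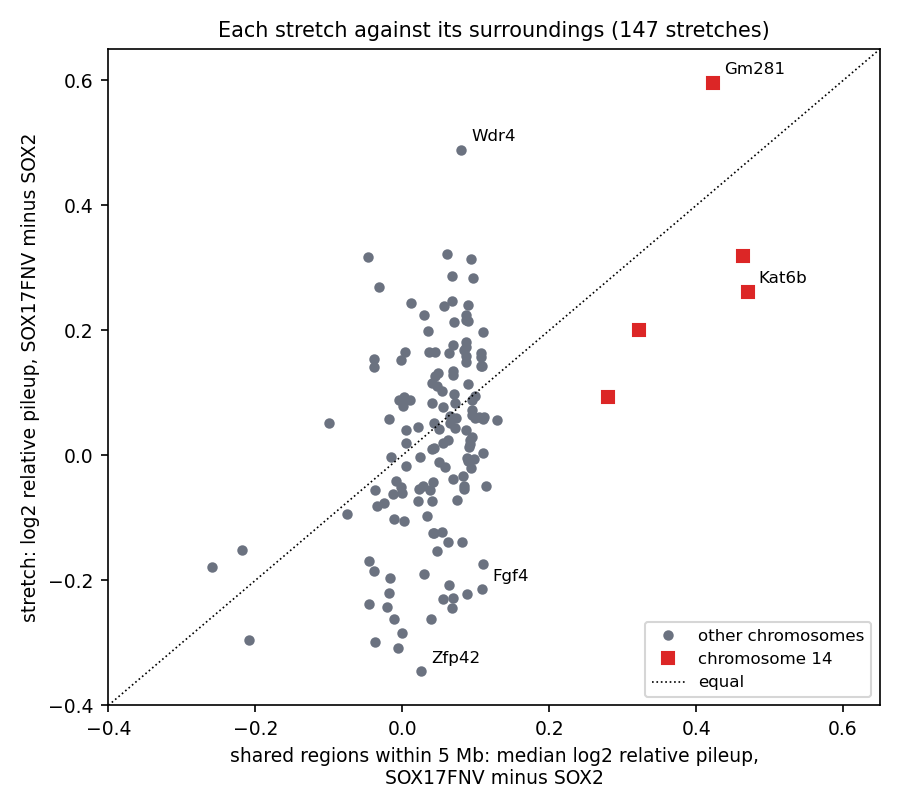
SOX17FNV minus SOX2 difference in log2 relative pileup of each of the 147 stretches (vertical) against the median difference of shared regions within 5 Mb (horizontal), with chromosome 14 as squares and equality dotted. The 5 stretches on chromosome 14 have surroundings from 0.28 to 0.47, while Wdr4 at 0.49 and Zfp42 at -0.35 lie far from surroundings near 0.

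Stretches beyond the stem cell genes were lower too. Otx1, a homeobox gene of forebrain development, shared a stretch with Ehbp1 that had relative pileup of 0.812 and 0.878 in the SOX17FNV libraries, against 0.992 and 1.06 in the SOX2 libraries (-0.28, and -0.28 by deposited fold). Its region at chr11:21988451-21988908 had pileups of 18 and 13 in the SOX17FNV libraries, against 34 and 26 in the SOX2 libraries (-0.81). The HoxA stretch over Hoxa3, Hoxa7, Hoxa9 and Hoxa10, homeobox genes of body axis patterning, had 0.987 and 0.875 in the SOX17FNV libraries, against 1.07 and 1.16 in the SOX2 libraries (-0.26). Shared regions on its chromosome, chromosome 6, had a median difference of -0.07, and its value by deposited fold is not given here. Grsf1, an RNA-binding protein gene of mitochondrial RNA granules, had 1.33 and 1.14 in the SOX17FNV libraries, against 1.50 and 1.53 in the SOX2 libraries (-0.30, and -0.06 by deposited fold). A stretch near Gpbp1 was lower in both SOX17FNV libraries (log2 difference -0.31, and -0.08 by deposited fold). A stretch near Klrb1b was also lower (-0.30, and -0.19 by deposited fold), beside a median region difference of -0.21 within 5 Mb. By another measure, scaled in each library to the median pileup of regions within 5 Mb, it differed by -0.0094.

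Among the gene lists counted, histone genes had the largest share overlapped by a stretch. The clustered protocadherins were not counted as a list. Of 67 histone genes, 16 were overlapped by a stretch (23.9%), beside 1.06% of all protein-coding genes, and all lay in 2 stretches on chromosome 13. The stretch from H1f2 to H1f1 at chr13:23738528-23765084 held 7 regions, all at gene ends, with relative pileup of 2.33 and 2.55 in the SOX17FNV libraries, against 2.14 and 2.46 in the SOX2 libraries (0.09, groups overlapping). The region at the H2ac4 start, chr13:23751015-23752952, which overlaps only the end of the window printed above and not its octamer, had pileups of 75 and 64 in the SOX17FNV libraries, against 66 and 53 in the SOX2 libraries (0.38). The region over the H2bc3 promoter had pileups of 88 and 59 in the SOX17FNV libraries, against 84 and 77 in the SOX2 libraries (-0.0049). The stretch from H2ac8 to H2bc6 had 2.07 and 2.12 in the SOX17FNV libraries, against 2.09 and 2.43 in the SOX2 libraries (-0.10). Reads in near-identical histone genes may be shared among copies, so values at single genes are uncertain.

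Transfer RNA genes were another dense family. Of 391 annotated tRNA genes, 42 (10.7%) lay under 7 stretches, and 29 members (3.46%) overlapped one, against 153 other shared regions (0.275%). The Zfp184 stretch, next to the histone genes on chromosome 13 and named for a zinc finger gene, held 11 regions and 15 tRNA genes with relative pileup of 1.45 and 1.53 in the SOX17FNV libraries, against 1.52 and 1.58 in the SOX2 libraries (-0.06). The groups overlapped there, and the 7 tRNA stretches counted 2 higher and 2 lower. The tRNA genes have near-identical copies, so reads placed among them are uncertain too.

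Ribosomal protein genes were overlapped in 7 of 80 cases (8.75%). Hox genes were overlapped in 4 of 39 cases and the housekeeping genes Actb and Tubb5 in 2 of 12. None of 49 developmental homeobox genes, 17 imprinted genes, 15 MYC and cell cycle genes, 13 endoderm genes, 10 LIF and STAT3 genes, 9 mesoderm genes, 8 neural genes or 8 fibroblast genes was overlapped. Stretches overlapped 1.06% of all protein-coding genes, and at that share lists this short would often hold none. Cdkn1a, a cell cycle inhibitor, lay within 10 kb of a stretch. The largest stretch of all, 16 regions over 57439 bp of the protocadherin gamma genes on chromosome 18, had relative pileup of 1.02 and 1.11 in the SOX17FNV libraries, against 1.14 and 1.10 in the SOX2 libraries. The 3 protocadherin stretches held 27 regions, with overlapping groups and differences between -0.15 and -0.06.

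The counts were also taken by kind of stretch. Over all 147 stretches 35.4% were higher in both SOX17FNV libraries and 21.1% lower. Among the 40 without a protein-coding gene, 12 were higher (30.0%) and 10 lower (25.0%). The one with most regions held 10 near Irf2bpl (1.38 and 1.37 in the SOX17FNV libraries, against 1.33 and 1.26 in the SOX2 libraries, 0.09). Among the 24 with 3 or more genes, 11 were higher (45.8%) and 1 lower (4.17%). Among the 84 with at most 1 member at a gene end, 29 were higher (34.5%) and 18 lower (21.4%), and among the 63 others 23 were higher (36.5%) and 13 lower (20.6%). These kinds were not tested against each other.

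Group-specific regions took shares inside stretches close to their shares outside. In 77 stretches lay 131 regions that were not shared by all 4 libraries, of which 7 were called in both SOX17FNV libraries and neither SOX2 library (5.34%, beside 4.67% outside stretches) and 8 in both SOX2 libraries and neither SOX17FNV library (6.11%, beside 6.06%). Ltbp4, which encodes a latent TGF-beta binding protein, held 2 of the SOX17FNV-only regions, and no stretch held more than 1 SOX2-only region. The intervals of both shares (2.18 to 10.7% and 2.67 to 11.7%) include the shares outside.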

How the data were processed

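ATAC-seq peak lists of 4 libraries were used as deposited. Per the submitters' processing notes the tools were Bowtie2, SAMtools and MACS2 with genome build mm10. No version or setting of these tools is given in the sources used here. The lists were called library by library. The authors' peak caller gave each peak an integer score, a fold enrichment (ratio of summit pileup to local background), a -log10 p-value and a -log10 q-value in the deposited files; the lowest -log10 q was 1.30 in each list. The fold and the -log10 p were used together to recover the whole-number summit pileup, which came out whole for 100% of peaks within a tolerance of 0.001 in -log10 p. The lists hold no read totals, so sequencing depth is unknown; the recovered genome-wide background was 3.91 and 3.27 fragments with SOX17FNV and 4.17 and 5.02 with SOX2.

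Intervals overlapping by at least 1 bp were merged. A region's value in a library was its highest summit pileup. Position was read from RefSeq genes (GRCm38.p6), with 1 kb around gene ends. Promoter windows of chromosome 18 were not used here. Named stretches were the 12 with most regions, the 8 with most regions among those with at most 1 member at a gene end, the 5 highest and 5 lowest non-overlapping differences, every stretch overlapping or within 10 kb of a listed stem cell gene, up to 3 each with most regions specific to either group, and the 5 with most regions among those without a gene; regions within stretches, the HoxA stretch and the histone stretches were chosen after their values were seen. A stretch that the rule names is not reported here. The members and gene lists were chosen with earlier results of these data known. A planned sign-flip test of members against other shared regions is not reported, because the calls used the same values. Alternatives were the joining gap, fewest regions, -log10 q of 5, lists of equal length, scaling, leaving out each library and a replicate block. Stretch finding and pileup recovery were tested on simulated data. Python 3.11.15, pandas 2.3.3, numpy 2.4.6 and scipy 1.17.1 were used.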

Additional observations from a re-analysis of the deposited data

How the results depend on the processing

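The number of stretches depends on the rule. It was 147 with 839 regions as reported, 1 with 5 regions for a gap of 2.5 kb, 1385 with 9083 for 10 kb, 3 with 17 when every call needed a -log10 q of 5, 94 with 526 when each list was cut to its strongest 92851 peaks, and 493 or 52 stretches for at least 4 or 6 regions (chosen after seeing the data, as was the 5 Mb scaling). With -log10 q of 5 the 3 stretches, at H1f2, Eif4a2 and Btbd19, counted 1 higher and 0 lower, held 0 regions of either group alone, and the difference in fold percentile between members and other shared regions was -58.2 rather than -27.2. Leaving out each library gave 163 to 263 stretches, 921 to 1504 regions, 55 to 107 higher, 65 to 113 lower, 19 to 40 SOX17FNV-only and 22 to 60 SOX2-only regions, a percentile difference of -27.4 to -24.1 and a median log2 difference of -0.0225 to 0.0095. Those settings also redraw the stretches. They leave 1 library in a group, so non-overlap and group-only calls are easier to reach. Their counts are therefore not comparable with those of all 4 libraries. The median, 0.06 as reported, was 0.26 scaled to background pileup, 0.0176 scaled to the same chromosome, 0.0545 with -log10 q of 5, -0.0104 without SOX17FNV replicate 1, -0.0225 without SOX17FNV replicate 2, -0.0117 without SOX2 replicate 1, 0.0095 without SOX2 replicate 2, -0.0272 with lists of equal length (21 higher, 4 SOX2-only regions), -0.0259 by deposited fold (5 higher, 9 lower) and -0.0166 scaled to 5 Mb (32 higher). Scaling to background pileup gave 26 higher and 0 lower. Lower stretches numbered 29 with lists of equal length and 38 scaled to 5 Mb. Of 30 named stretches 17 changed sign under some scaling. By background these were Zfp184 0.14, Pcdhg 0.13, near Tmem131l 0.13, Esrrb 0.0789, Mok 0.10, near Cd9 0.0515, miR-290 (Nlrp12) 0.0131 and Dppa5a 0.13. By deposited fold they were near Tmem17 -0.0300, Esrrb 0.0170, Gm281 -0.0670, Kat6b -0.19, Pla2g1b -0.0365, near Actb -0.0323, near Cd9 0.23 and Ltbp4 -0.0183. Scaled to the same chromosome, near Tmem17 was -0.0147, near Kat6b -0.0533 and Kat6b -0.11, and scaled to 5 Mb Rcc2 was -0.0400, near Kat6b -0.17, Kat6b -0.24, Etv5 -0.0092, near Cd9 0.15 and Ltbp4 -0.0593. The cause of these shifts was not tested. With the replicate block the median was 0.06, with 61 stretches higher and 41 lower in both numbered pairs; same-numbered libraries deviated together with a correlation of 0.23 over shared regions, but with 2 pairs the libraries share only a number, and the smallest p is 0.5.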

Other observations

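The sex chromosomes, which the rule leaves out, held 1355 shared regions on X and 1 on Y, and no joined stretch there reached 5 regions (the largest held 4). When the rule asked for a call in both libraries of a group rather than in all 4, the SOX17FNV libraries gave 371 stretches with 2124 regions and the SOX2 libraries gave 398 with 2278, and 45.0% of the SOX17FNV stretches and 41.7% of the SOX2 stretches overlapped one of the other group.

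Of 12408 long noncoding RNA genes, 69 (0.556%) were overlapped by a stretch, and 15.9% of member regions overlapped such a gene, against 13.0% of other shared regions. Of 1286 snoRNA genes 29 lay under 8 stretches, and of 1136 miRNA genes 20 lay under 10 stretches, 9 of them in the miR-290 stretch. These counts were not tested.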
